A study of Mus musculus with 20 samples.

Results

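Long-term hematopoietic stem cells (LT-HSC) were set against activated T cells, so that the resting cells at the root of the blood system were compared with mature lymphocytes that had been stimulated. The comparison used 6 of the 20 arrays of a series on sorted mouse blood cells: the 2 arrays titled LT-HSC_SPKSL, 2 arrays of activated CD4 T cells and 2 arrays of activated CD8 T cells. The value for a gene is its LT-HSC mean minus the mean of the activated CD4 and activated CD8 group means. All 6 came from wild-type C57Bl/6 mice of 12 to 14 weeks (CD45.1 in the series text) that the labels call female, and each array held material pooled from 4 samples. The LT-HSC carry no treatment in the labels, and the activated T cells are described as treated with LPS, the endotoxin of bacterial walls, before sorting. No time or dose of that treatment is given in the sources used here. Between 25000 and 50000 sorted cells went into a sample, and the RNA was amplified in 2 rounds of in vitro transcription, so fewer cells of a type and less RNA per cell cannot be told apart.

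LT-HSC reside in the bone marrow, divide rarely and renew themselves while giving rise to every blood lineage. Their identity is held by transcription factors such as the Hox, Meis, Erg and Mecom proteins, and their place in the marrow by adhesion molecules and by receptors for niche signals, among them KIT and CXCR4. A T cell that is activated through its antigen receptor and CD28 induces MYC and the IL-2 receptor, enlarges its ribosome pool, takes up and makes amino acids, nucleotides and sterols, and enters repeated divisions while making cytokines.

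Expression is given on the log2 scale, where a difference of 1 is a doubling, and a GCRMA value below about 5 is near background, so a difference against such a value has no exact size. The 2 arrays of a group correlated at 0.978 for LT-HSC, 0.983 for activated CD4 and 0.976 for activated CD8 T cells over the 9810 genes tested; genes are no replicates of each other. LT-HSC arrays correlated with activated arrays at 0.708 to 0.753. Between 7705 and 7904 genes exceeded 5 in the LT-HSC arrays and between 7529 and 7815 in the activated arrays. The 3′ minus 5′ signal of the Gapdh control probe sets was 8.95 and 9.73 in LT-HSC, against 7.37 and 7.09 in activated CD4 and 6.42 and 6.27 in activated CD8 T cells, and that of the beta-actin controls was 7.42 and 7.15, against 6.3 to 7.8. This sign of RNA quality thus moved with the groups for Gapdh, and its part in the differences was not tested. A value after ± is a standard error from the linear model, a signed or ± value in parentheses after a gene is its difference (LT-HSC minus activated), every group has 2 arrays, and p-values measure only the spread between such pools.

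The sex-linked genes went against the label of the activated arrays. Xist, the RNA that silences an X chromosome in females, read 12.81 and 13.47 in LT-HSC, against 3.93 and 8.14 in activated CD4 and 2.23 and 8.99 in activated CD8 T cells. Eif2s3y, a Y-linked translation factor gene, read 3.18 and 3.22 in LT-HSC, against 11.98 and 10.73 in activated CD4 and 12.51 and 10.97 in activated CD8 T cells. Kdm5d, a Y-linked histone demethylase gene, read 2.61 and 2.65 in LT-HSC and 9.09 and 7.71 and 9.18 and 7.87 in the activated CD4 and CD8 arrays. All 4 activated arrays thus carried Y-linked signal and both LT-HSC arrays did not, so male cells in the activated pools and activation cannot be told apart for genes that differ by sex. Within each activated group, the array with the lower Xist had the higher Eif2s3y. Kdm6a, an X-linked gene that escapes silencing, was higher in LT-HSC by 1.85 ± 0.40, while its X-linked fellows Kdm5c at 0.44 ± 0.22, Ddx3x at 0.34 ± 0.16 and Eif2s3x at 0.29 ± 0.37 did not pass the test. Those values depend on the probe set: 3 of 6 other Kdm5c probe sets (1.37 ± 0.47, 4.43 ± 0.98 and 5.06 ± 0.83) and 1 of 2 other Ddx3x probe sets (3.55 ± 0.72) were higher in LT-HSC, and 1 of 2 other Eif2s3x probe sets (-2.49 ± 0.50) was lower. The call of Kdm5d was lost without either LT-HSC array, at -5.81 and -5.85.

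Both cell labels were checked against their markers. Of the 10 LT-HSC markers tested, 9 were higher in LT-HSC and 1 was lower, and of the 10 T cell markers tested 10 were lower. Cd4 was too dim for a test, at 3.94 and 4.35 in activated CD4 and 3.68 and 3.79 in activated CD8 T cells. It thus gave no check of the CD4 label. The log2 summed level of the LT-HSC markers was 15.46 to 15.62 in LT-HSC, against 8.41 to 8.76 in activated CD4 and 8.62 to 9.06 in activated CD8 T cells. For the T cell markers it was 6.61 to 7.21 in LT-HSC, against 13.87 to 13.92 and 14.29 to 14.71. Il2ra, the IL-2 receptor chain that T cells switch on when activated, read 2.50 and 2.47 in LT-HSC, against 11.70 and 11.90 in activated CD4 and 11.43 and 12.02 in activated CD8 T cells, and 2.46 to 3.68 in the 4 naive T cell arrays. The B cell list lay at 8.07 to 8.43 in LT-HSC and 7.80 to 8.63 over the activated arrays, with none of its 9 tested members called. Of 5 NK markers, Klrd1 alone was called, lower in LT-HSC. The NK list lay at 5.23 to 5.37 in LT-HSC, 5.28 to 5.73 in activated CD4 and 9.91 to 11.55 in activated CD8 T cells. Of 12 myeloid markers, 4 were higher in LT-HSC, with a summed level of 10.50 to 10.54 against 7.03 to 7.24; these were Lyz2, Csf1r, Cd14 and Csf3r, while the other 8, among them S100a8, Itgam, Camp, Ltf and Mmp9, were below 5 in both LT-HSC arrays. Cd14 rested on 1 LT-HSC array, at 6.73 and 1.77, and lost its call without it. Of 7 erythroid markers, Car2, a carbonic anhydrase, alone was higher, at 12.55 and 11.98 in LT-HSC against 2.60 to 3.94 in activated cells, and the other 6 (among them Klf1, Alas2 and Gata1) were below 5 in both LT-HSC arrays. The part of other cells in the results was not tested.

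**Figure D1:**
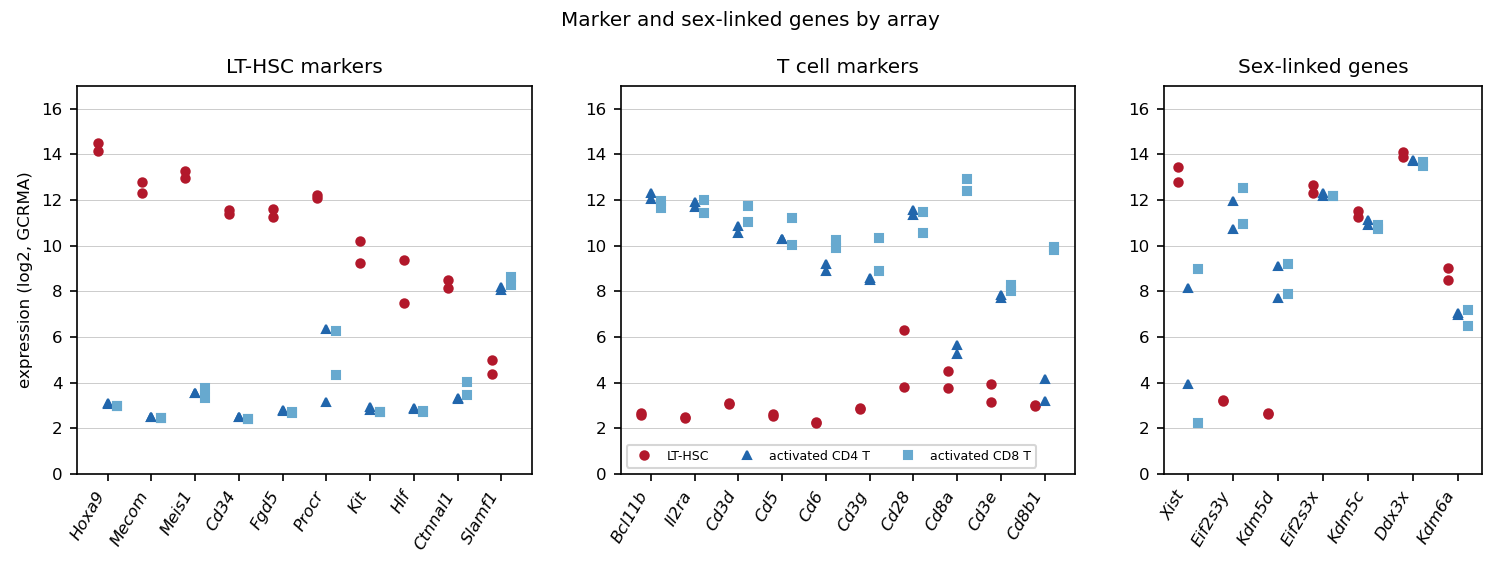
Log2 expression of each LT-HSC marker (left panel), T cell marker (middle panel) and sex-linked gene (right panel) in every array. Filled circles are LT-HSC, triangles activated CD4 and squares activated CD8 T cells, with 2 arrays each. The LT-HSC markers other than Slamf1 lie highest in LT-HSC, the T cell markers lie highest in activated cells, and Xist and the Y-linked Eif2s3y and Kdm5d split the groups in opposite ways.

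Of the 9810 genes tested, 4925 (50.2%) passed both limits of the test, an adjusted p below 0.05 and a difference no smaller than 1 on the log2 scale. They comprised 2226 genes higher in LT-HSC (22.7%) and 2699 lower in LT-HSC (27.5%), and the median difference over all genes tested was -0.14. Calls were thus common among all genes, and the counts below are read against these shares. A dim gene could enter the test through the arrays of the group in which it was high, so a count over the tested members of a list describes those members and not the whole list. Lists with a median below 5 on the lower side were most open to this. In activated cells the stem cell regulators lay at 4.53, the stem cell surface genes at 4.80 and the imprinted genes at 4.70. In LT-HSC the T cell receptor list lay at 3.57 and the costimulation list at 4.505. The ends of the distribution were unequal: 484 genes were higher by 4 or more, and 264 were lower by 4 or more. Of the higher genes, 661 were below 5 in all 4 activated arrays, and 595 of the lower genes were below 5 in both LT-HSC arrays. The largest differences with arrays that did not overlap held genes of both lineages, beside the Y-linked Eif2s3y and genes low in naive T cells such as Il2ra and Bcat1. On the LT-HSC side the 12 largest were Hoxa9, Mecom, Alox5ap, Fkbp9, Mamdc2, Tfr2, Ppp1r9a, Myct1, Ctla2b, Meis1, Mef2c and Erg, from 11.30 down to 9.25. On the other side they were Icos, Ifng, Gpr174, Bcl11b, Il2ra, Rasgrp1, Ikzf3, Tbx21, Thy1, Ccr7, Eif2s3y and Bcat1, from -11.25 to -8.21.

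**Figure D2:**
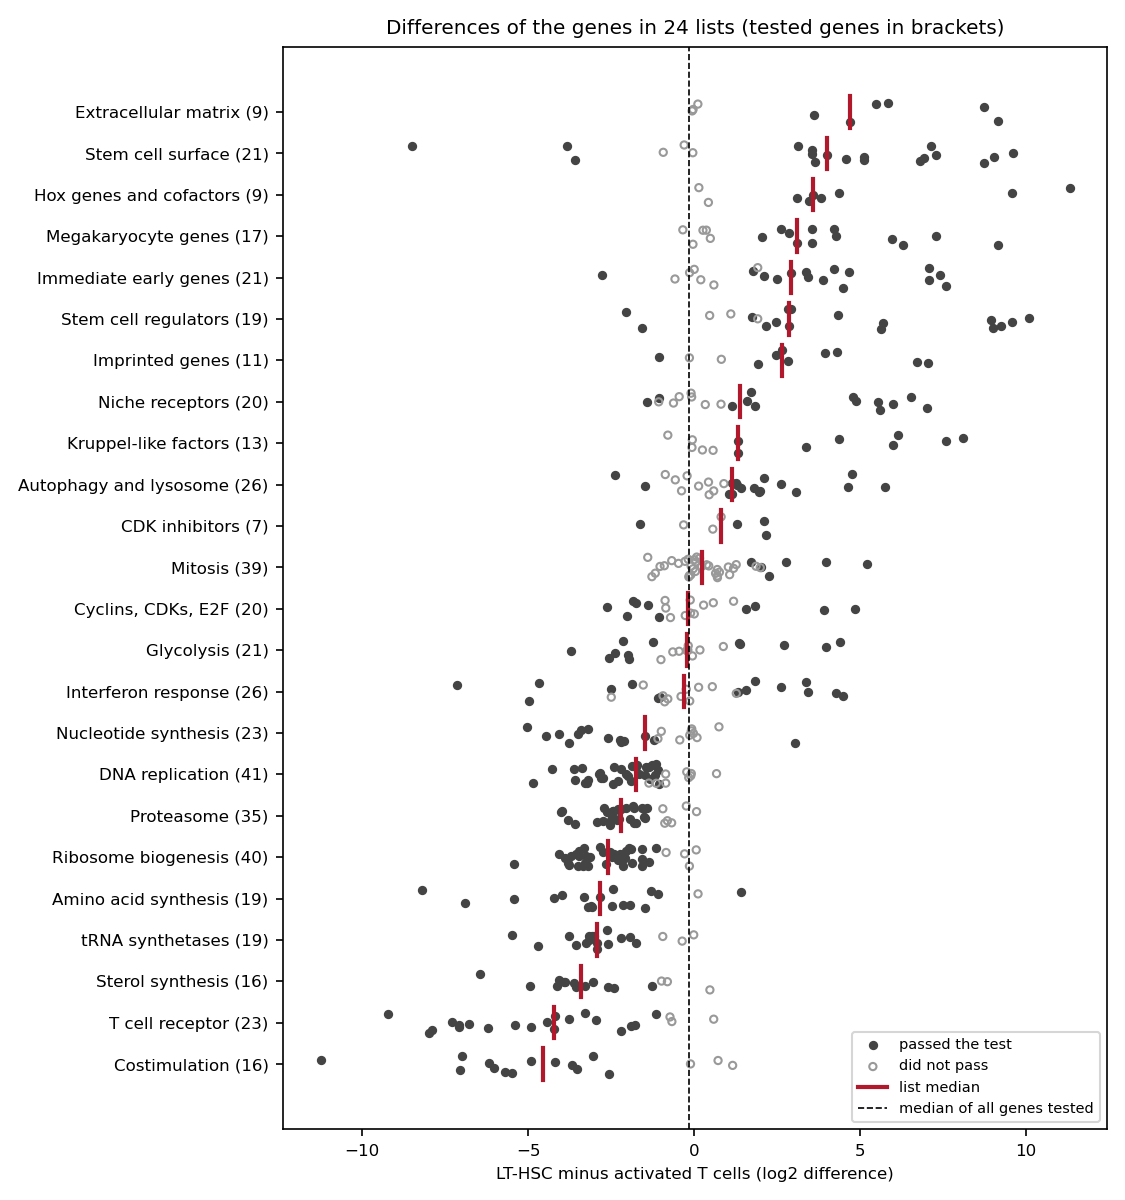
Difference of each tested gene (LT-HSC minus activated T cells, log2) in 24 gene lists, 1 row per list. Filled points are genes past the test, open points are genes that are not, the bar is the list's median and the dashed line is the median of all 9810 genes tested, -0.14. Stem cell, Hox, surface and immediate early lists lie mostly to the right of the line, and ribosome, tRNA synthetase, sterol and T cell receptor lists mostly to the left.

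Transcription factors of the stem cell were mostly higher in LT-HSC. Of 19 stem cell regulators tested (of 26 listed), 14 were higher in LT-HSC, 2 were lower, and the median difference was 2.86. Mecom, a zinc finger factor needed for stem cell maintenance, read 12.79 and 12.32 in LT-HSC, against 2.48 and 2.49 in activated CD4 and 2.44 and 2.44 in activated CD8 T cells, a difference of 10.09 ± 0.17 (adjusted p = 1.54e-13). Tal1 and Lmo2, partners in the complex that specifies blood cells, read 11.66 and 11.30 and 13.54 and 13.52 in the LT-HSC arrays, against 2.49 to 2.60 and 4.05 to 5.06 over the activated arrays. Lyl1, the close relative of Tal1, was higher by 5.69 ± 0.49 with LT-HSC arrays that stood apart, at 8.80 and 6.37. Erg, an ETS factor of stem cells and vessels, was higher by 9.25 ± 0.55, whereas its relative Fli1 read 8.46 and 8.52 in LT-HSC and 7.69 to 8.52 in activated cells and did not pass. The 2 members on the other side were Gfi1, a repressor that restrains stem cell proliferation and is also used by T cells, at 8.86 and 8.50 in LT-HSC against 9.92 to 11.83, and Zfpm1, the GATA cofactor FOG1, at 6.32 and 5.99 against 7.40 to 8.10.

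Most Hox genes could not be tested. Only 9 of the 27 Hox genes and cofactors listed reached the level needed for a test. Of those 9, 7 were higher in LT-HSC, beside 22.7% of all genes. The list median in activated cells was 3.555. Members that dim there could enter the test only through other arrays, so the count depended on the filter. Hoxa9, a regulator of stem cell expansion with the largest difference of all genes tested, read 14.51 and 14.16 in LT-HSC, against 3.09 and 3.07 in activated CD4 and 2.98 and 2.98 in activated CD8 T cells. Its cofactor Meis1 read 12.96 and 13.28 in LT-HSC and 3.56 and 3.55 and 3.34 and 3.77 in the 2 activated groups. Hoxa10 (4.35 ± 0.16), Hoxb5 (3.83 ± 0.14) and Hoxa2 (3.47 ± 0.18) were also higher in LT-HSC, all with activated values at or below 3.30. The Hoxa5 probe set of highest mean read 8.95 and 9.56 in LT-HSC, against 9.26 and 9.30 in activated CD4 and 8.88 and 9.02 in activated CD8 T cells, so the arrays overlapped and the difference of 0.14 ± 0.64 did not pass, but a second Hoxa5 probe set was higher in LT-HSC by 5.33 ± 0.24, above 5 in 2 of the 6 arrays.

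Surface receptors split along the line between stem cell and lymphocyte. Of 21 stem cell and vessel surface genes tested (of 37 listed), 15 were higher in LT-HSC and 3 were lower, with a median of 3.98. Kit, the stem cell factor receptor, read 10.21 and 9.25 in LT-HSC, against 2.92 and 2.82 in activated CD4 and 2.73 and 2.72 in activated CD8 T cells. Fgd5, a guanine exchange factor used to mark LT-HSC, was higher by 8.71 ± 0.16, Procr, the endothelial protein C receptor, by 7.12 ± 0.68, and Cd34, a sialomucin of progenitors and vessels, by 9.03 ± 0.17. Procr read 12.21 and 12.10 in LT-HSC and was uneven in the activated arrays, at 3.16 and 6.37 in CD4 and 4.32 and 6.28 in CD8 T cells. The 3 genes lower in LT-HSC are surface molecules that lymphocytes share. Thy1 read 2.60 and 2.49 in LT-HSC against 10.39 to 11.72 in activated cells, and Cd82, a tetraspanin, was lower (-3.84 ± 0.36). A second Cd82 probe set was not called (-0.36 ± 0.2). Slamf1, which encodes the CD150 antigen used to sort LT-HSC, read 4.38 and 5.01 in LT-HSC, against 8.07 and 8.18 in activated CD4 and 8.27 and 8.62 in activated CD8 T cells, a difference of -3.59 ± 0.29 (adjusted p = 2.56e-07), so among the LT-HSC markers this one alone was lower. Naive T cells lay at 4.10 to 6.58.

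Receptors for niche signals were higher in LT-HSC for 11 of 20 genes tested (of 29 listed) and lower for 2. Cxcr4, the receptor for the marrow chemokine CXCL12, read 10.18 and 9.97 in LT-HSC, against 3.12 and 3.90 in activated CD4 and 3.40 and 1.84 in activated CD8 T cells, while naive T cells read 5.79 to 9.31. The Frizzled receptors of the Wnt pathway Fzd4 (6.53 ± 0.40), Fzd7 (5.59 ± 0.69) and Fzd6 (5.54 ± 0.18) were higher, as were the activin and BMP receptor Acvr1 (5.98 ± 0.65) and the Notch ligand Jag1 (4.88 ± 0.58). Notch1, the receptor that drives T cell fate, read 8.58 and 8.43 in LT-HSC against 9.60 to 10.34 in activated cells and was lower (-1.43 ± 0.23). Tgfbr2, a chain of the TGF-beta receptor, read 9.94 and 9.90 against 8.60 to 9.67 and did not pass.

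Imprinted genes, expressed from 1 parental copy and many of them restrainers of growth, were higher in LT-HSC for 8 of 11 tested (of 26 listed), with a median of 2.63. Grb10, an adaptor that dampens growth factor receptors, read 10.46 and 9.33 in LT-HSC against 2.74 to 3.14 in activated cells. Meg3, a long noncoding RNA, read 10.52 and 9.99 against 3.21 to 4.15, and Sgce, Peg3 and Ndn were higher by 4.29 ± 0.44, 3.95 ± 0.22 and 2.81 ± 0.22. Igf2r, which clears the growth factor IGF2, was the one imprinted gene lower in LT-HSC (-1.07 ± 0.26), with naive T cells at 6.44 to 7.33. Cdkn1c, the imprinted CDK inhibitor p57 known from quiescent stem cells, read 2.24 and 2.22 in LT-HSC, too low for a test.

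Megakaryocyte genes, which serve the platelet line, were higher in LT-HSC for 12 of 17 tested (of 24 listed) and lower for 0. Of all genes, 22.7% were higher and 27.5% lower. Mmrn1, the platelet protein multimerin, read 12.57 and 12.14 in LT-HSC, against 3.28 and 3.28 and 3.12 and 3.16 in the activated CD4 and CD8 arrays. Vwf, the platelet adhesion factor of blood vessels and platelets, read 10.14 and 9.23 against 2.37 to 2.43, and Pf4, a platelet chemokine, read 8.59 and 9.92 against 2.75 to 3.45. The LT-HSC arrays did not always match each other here: Ppbp, another platelet chemokine, read 2.99 and 9.24, so its difference of 4.21 ± 1.15 rested on a single array. Of 24 extracellular matrix genes listed, 9 were tested and 15 stayed too dim, and 6 were higher, among them the matrix protease Mmp2 at 10.37 and 10.91 in LT-HSC against 1.87 to 1.93 and the basement membrane collagen Col4a2 at 8.40 and 7.84 against 2.25 to 2.33. The list medians in activated cells were 3.15 for megakaryocyte and 3.21 for matrix genes. Members that dim there could enter the test only through other arrays, so both counts depended on the filter.

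On the lymphocyte side, the T cell receptor apparatus was lower in LT-HSC for 20 of 23 genes tested and higher for none, with a median of -4.22. Cd3d, a chain of the receptor complex, read 3.06 and 3.09 in LT-HSC, against 10.88 and 10.54 in activated CD4 and 11.75 and 11.06 in activated CD8 T cells. Zap70, the kinase that binds the activated receptor, was lower (-7.07 ± 0.47), as was Rasgrp1, which couples it to RAS (-9.22 ± 0.62). Rasgrp1 lay at 11.66 to 12.06 in activated cells and at 13.89 to 14.58 in naive T cells. The shared signalling genes Ptprc (-0.67 ± 0.30), Plcg1 (0.59 ± 0.29) and Fyn (-0.73 ± 0.70) did not pass, although a second Fyn probe set was lower (-2.14 ± 0.24), above 5 in all 6 arrays.

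Lineage factors were divided. Of 28 T lineage transcription factors tested, 11 were lower in LT-HSC, 5 were higher and 12 were not called, beside 27.5% lower and 22.7% higher of all genes. Bcl11b, which commits cells to the T lineage, read 2.67 and 2.57 in LT-HSC, against 12.33 and 12.06 in activated CD4 and 11.94 and 11.64 in activated CD8 T cells. Tbx21 and Eomes, the T-box factors of effector cells, were lower (-8.65 ± 0.33 and -7.22 ± 0.39). Irf4, which is induced by receptor signalling, read 5.93 and 5.06 in LT-HSC and 12.17 to 12.86 in activated cells, with 3.78 to 5.73 in naive T cells. Against that direction, Rora, a nuclear receptor of innate lymphoid and Th17 cells, read 10.11 and 9.31 in LT-HSC against 2.96 to 5.77, and Ikzf2 (Helios) was higher by 3.37 ± 0.71 and the repressor Bcl6 by 2.77 ± 0.29.

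Costimulatory and inhibitory receptors gave 13 of 16 tested genes lower in LT-HSC and 0 higher. Icos, the inducible relative of CD28, had the largest difference on this side: 2.08 and 2.61 in LT-HSC, against 13.63 and 13.73 in activated CD4 and 13.15 and 13.87 in activated CD8 T cells. Tnfrsf9 (4-1BB), an activation-induced receptor, read 3.59 and 3.97 in LT-HSC against 9.95 to 11.66 in activated and 3.49 to 4.68 in naive T cells, and the brake Ctla4 was lower (-6.03 ± 0.51). Of 20 T cell cytokines and chemokines listed, 13 were tested and 13 were lower in LT-HSC, beside 27.5% of all genes. The arrays did not overlap for 9 of them. The list median in LT-HSC was 3.08, and members that dim there could enter the test only through other arrays, so the count was largely set by the filter. Some calls came from 1 activated group: Il4 differed by 0 from activated CD8 and the chemokine gene Ccl3 by -0.485 from activated CD4 T cells. Ifng, the main effector cytokine of Th1 and CD8 cells, read 2.20 and 2.23 in LT-HSC, against 10.65 and 13.54 in activated CD4 and 12.40 and 14.48 in activated CD8 T cells. Lta (lymphotoxin) and Tnf read 2.32 and 2.36 and 2.20 and 3.65 in the LT-HSC arrays, against 8.98 to 10.00 and 7.37 to 7.75 over the activated arrays.

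Cytokine receptors were called on both sides. Of 23 receptors and their inhibitors tested, 8 were higher and 8 lower in LT-HSC, beside 22.7% and 27.5% of all genes. Il7r, the receptor of T cell survival, read 1.95 and 1.76 in LT-HSC against 9.02 to 10.11 in activated cells, and Il12rb1, needed for the Th1 cytokine IL-12, was lower (-6.32 ± 0.42). Higher in LT-HSC were the interferon-gamma receptor Ifngr1, at 10.84 and 11 against 6.29 to 7.01, the GM-CSF receptor chain Csf2ra (4.01 ± 0.33), and the feedback inhibitors Socs2 (3.21 ± 0.58) and Socs3 (2.54 ± 0.43). So Ifng and its receptor chain differed in opposite directions between the 2 cell states, with the ligand higher in activated T cells. Of 17 homing genes tested, 7 were lower, 2 higher and 8 not called. Ccr7, which guides lymphocytes into lymph nodes, read 2.65 and 2.81 in LT-HSC against 10.63 to 11.52, and the integrin chains Itgal and Itgb2 were lower (-4.79 ± 0.29 and -3.06 ± 0.46), while the integrin chain Itga4 was higher by 2.38 ± 0.43. Of 2 other Itga4 probe sets, none was called (0.29 and 1.17). Cd48, whose absence is used to sort LT-HSC, read 2.49 and 2.80 in LT-HSC against 9.10 to 9.99.

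Myc and its antagonists were higher on opposite sides. Myc itself, the driver of cell growth after T cell activation, read 2.17 and 3.27 in LT-HSC, against 7.61 and 8.77 in activated CD4 and 9.07 and 9.87 in activated CD8 T cells, a difference of -6.11 ± 0.54 (adjusted p = 5.41e-07). The 4 activated arrays all lay above both LT-HSC arrays, and naive T cells read 3.20 to 5.28. Its antagonists, which compete for the partner MAX, went the other way. Mxd4 read 10.41 and 10.75 in LT-HSC, against 5.01 and 4.60 and 5.87 and 4.95 in activated CD4 and CD8 cells, with naive T cells at 10.75 to 11.06; Mxi1 was higher by 3.40 ± 0.34, Mnt by 1.45 ± 0.23 and Mga by 1.15 ± 0.25. Mxd3, which is found in dividing cells, was the exception among them, at 7.03 and 7.60 in LT-HSC against 8.09 to 9.36, although its call was lost against activated CD8 T cells alone. Of the 9 network genes tested, 5 were higher and 3 lower, beside 22.7% and 27.5% of all genes.

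**Figure D3:**
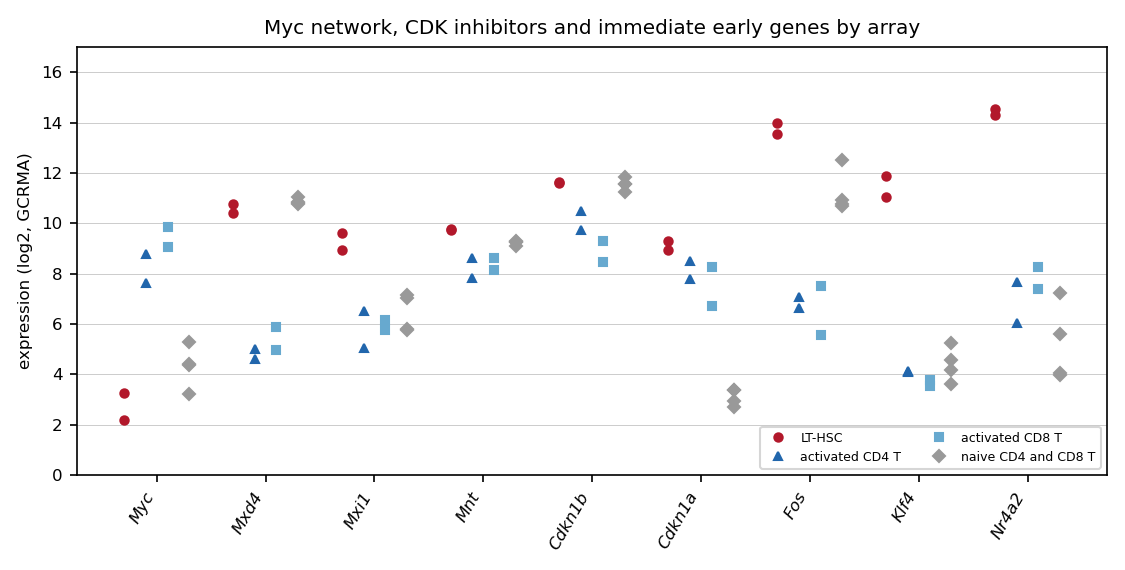
Log2 expression per array of Myc and its antagonists Mxd4, Mxi1 and Mnt, the CDK inhibitors Cdkn1b and Cdkn1a, and the immediate early genes Fos, Klf4 and Nr4a2, in LT-HSC (2 arrays), activated CD4 (2), activated CD8 (2) and naive T cells (4). Mxd4, Cdkn1b and Fos are also high in naive T cells, whereas Klf4 and Nr4a2 are highest in LT-HSC among these groups and Myc is highest in activated cells. Tests against naive cells are not reported here.

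Genes that build ribosomes were lower in LT-HSC almost throughout. Of 40 tested, 36 were lower and 0 higher, with a median of -2.61. Nop16, a nucleolar factor of the large subunit, read 3.63 and 3.47 in LT-HSC, against 9.02 and 8.65 in activated CD4 and 8.91 and 9.32 in activated CD8 T cells. Polr1b and Polr1e, subunits of RNA polymerase I, were lower (-3.90 ± 0.47 and -4.07 ± 0.30). The 4 members not called include Npm1 and Ddx21: Npm1 (nucleophosmin) read 14.93 and 14.67 in LT-HSC against 14.84 to 15.24, and the helicase Ddx21 read 12.51 and 12.28 against 12.16 to 12.80, so the arrays overlapped for these probe sets. A second probe set of each gene was called lower in LT-HSC, at -1.68 ± 0.41 for Npm1 and -2.50 ± 0.37 for Ddx21, both above 5 in all 6 arrays.

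Promoter windows of these genes, from 250 bases before to 50 after the gene start, were read from the RefSeq table (GRCm38.p6) and searched on both strands for CACGTG, the E-box that MYC and MAX and other factors bind. The motif is its own reverse complement, and its letters do not occur within the E2F words searched further on. It stood in 8 of the 32 lower ribosome biogenesis genes with a window (25%), in 12.2% of all tested genes with one and in 13.1% of the genes lower in LT-HSC. Among genes higher in LT-HSC the share was 11.6%, and it varied between lists there. It was 3 of 13 for immediate early genes (23.1%), 2 of 13 for stem cell regulators (15.4%) and 0 of 9 for niche receptors. The examples below lie wholly before the gene start, with the motif in capitals, and are written 5′ to 3′ on the gene's strand. They belong to Nop2, an rRNA methyltransferase lower (-3.47 ± 0.35), at chr6:125131798-125131853, plus strand, and to Utp18, a processing factor of the small subunit lower (-2.41 ± 0.25), at chr11:93885767-93885811, minus strand.
Nop2: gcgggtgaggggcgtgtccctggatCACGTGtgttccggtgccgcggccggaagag
Utp18: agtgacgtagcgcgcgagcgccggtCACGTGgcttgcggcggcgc
A match describes the letters in this window and says nothing of binding in these cells. Nop2 and Utp18 are shown for their motif and lie outside the rule that picked the other genes.

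The further steps of protein production went with ribosomes. Aminoacyl-tRNA synthetases and their scaffolds, which charge tRNAs, were lower in LT-HSC for 16 of 19 tested, with a median of -2.93. Aimp2, a scaffold of the synthetase complex, read 6.36 and 5.35 in LT-HSC, against 11.15 and 11.04 and 11.25 and 11.89 in activated CD4 and CD8 arrays, and the valine enzyme Vars was lower (-4.71 ± 0.55). Translation initiation factors were lower for 17 of 25, led by subunits of the guanine exchange factor eIF2B, Eif2b3 (-4.67 ± 0.33) and Eif2b5 (-4.27 ± 0.35). Proteasome subunits were lower for 29 of 35, with a median of -2.20. Psmb5, the chymotrypsin-like core subunit, read 8.12 and 7.17 against 11.36 to 11.94, and Psme3, the nuclear activator of the core, read 8.0 and 8.12 against 11.45 to 11.75. No member of these 3 lists was higher in LT-HSC.

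Biosynthetic enzymes were lower in LT-HSC as well, and some of them were near background there. Of 19 amino acid, polyamine and one-carbon enzymes tested, 17 were lower. Bcat1, which transfers the amino group of branched-chain amino acids, read 2.04 and 2.07 in LT-HSC, against 10.00 and 9.86 in activated CD4, 10.49 and 10.70 in activated CD8 and 2.05 to 2.29 in naive T cells. Cth, the last enzyme of cysteine synthesis, read 2.88 and 2.72 in LT-HSC and 7.98 to 11.15 in activated cells, and Srm, spermidine synthase, was lower (-5.42 ± 0.41). Glud1, glutamate dehydrogenase, was the exception, at 12.39 and 12.25 in LT-HSC against 10.61 to 11.13, but its second probe set differed the other way (-1.39). Among amino acid transporters the split was mixed, with 6 higher and 3 lower of 16, beside 22.7% and 27.5% of all genes. The glutamine carrier Slc1a5 and the large neutral carrier Slc7a5 were lower (-2.24 ± 0.36 and -1.70 ± 0.46), whereas the lysosomal carriers Slc38a9 and Slc36a1 were higher by 2.62 ± 0.58 and 1.34 ± 0.37.

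Nucleotide synthesis enzymes were lower for 13 of 23. Ppat, the first committed enzyme of purine synthesis, read 6.10 and 5.73 in LT-HSC against 10.08 to 10.75, and Cad, which starts pyrimidine synthesis, read 8.96 and 8.54 against 12.17 to 13.02. Paics, another purine enzyme, read 14.84 and 14.78 against 14.32 to 14.95 and did not pass. Sterol genes were lower for 13 of 16, with a median of -3.42. Lss, which closes the sterol ring, read 5.67 and 5.04 in LT-HSC, against 11.75 and 11.44 in activated CD4 and 11.98 and 12.04 in activated CD8 T cells, and Sqle, the squalene epoxidase before it, was lower (-3.92 ± 0.48). Genes of the citrate cycle and of mitochondrial import were lower for 12 of 28 and higher for none, with Timm10, a chaperone of mitochondrial import, at 6.66 and 6.13 against 10.91 to 11.75.

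Glycolysis did not move as a block. Of 21 genes tested, 7 were lower, 5 higher and 9 not called, and without the first LT-HSC or the first activated CD4 array 3 were higher. Both shares of calls lay near those of all genes. The phosphofructokinases Pfkl and Pfkp were lower in LT-HSC (-3.72 ± 0.60 and -2.56 ± 0.41). Eno3 was lower (-2.39 ± 0.35), whereas its isoenzyme Eno2 read 6.81 and 7.22 in LT-HSC against 2.55 to 2.65 and was higher. Ldhb read 12.17 and 11.86 in LT-HSC against 8.41 to 9.90, while Ldha, the isoenzyme known for lactate production, read 13.69 and 13.42 against 14.07 to 14.39 and did not pass. Hk3, a hexokinase of myeloid cells, was higher in LT-HSC by 3.98 ± 0.47. Within each activated group the array numbered 2 was the higher for Tpi1, which read 12.43 and 12.12 in LT-HSC, 13.84 and 15.20 in activated CD4 and 13.46 and 15.13 in activated CD8 T cells.

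The lists of DNA replication and of mitosis gave different counts. Genes of DNA replication were lower in LT-HSC for 32 of 41 tested and higher for 0, with a median of -1.76. Against the activated CD4 arrays alone the lower replication genes numbered 25, and without the first LT-HSC array 22. Genes of mitosis were lower for 0 of 39 and higher for 6, with a median of 0.22. Of all genes, 27.5% were lower and 22.7% higher, so the higher mitosis genes were not in excess and only the lack of lower ones stood out. The mitosis count moved with the comparator: 11 mitosis genes were higher and 0 lower against activated CD4 T cells alone, and 4 were higher and 4 lower against activated CD8 T cells alone. The median level of the 39 mitosis genes was 6.74 and 7.62 in LT-HSC, against 5.33 and 5.38 in activated CD4 and 7.60 and 5.78 in activated CD8 T cells, so a single CD8 array reached the LT-HSC range, and without it 11 were higher. For the 41 replication genes the medians were 7.60 and 8.30 in LT-HSC, against 10.27 and 9.39 in activated CD4 and 11.02 and 10.30 in activated CD8 T cells, with no overlap. Naive T cells had medians of 5.59 to 7.57 for mitosis and 8.28 to 8.96 for replication.

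Single genes of both lists follow. Pold2, a subunit of the lagging-strand polymerase, read 5.38 and 5.99 in LT-HSC, against 10.41 and 10.28 in activated CD4 and 10.64 and 10.87 in activated CD8 T cells. Gins1 and Mcm2, parts of the replicative helicase, were lower (-4.27 ± 0.55 and -3.58 ± 0.39), and Mcm5, another helicase subunit, read 11.81 and 12.48 against 14.75 to 15.20. Mcm7, a further helicase subunit, read 13.24 and 13.22 against 12.76 to 13.76 and did not pass. Cenpa, the histone of the centromere, read 10.53 and 10.34 in LT-HSC, against 4.96 and 4.93 in activated CD4 and 6.15 and 4.86 in activated CD8 T cells, a difference of 5.21 ± 0.43 (adjusted p = 3.36e-07). Anln, the scaffold of the cleavage furrow, was higher in LT-HSC by 3.98 ± 0.59, the spindle midzone protein Prc1 by 2.77 ± 0.75 and the kinesin Kif23 by 2.24 ± 0.34. The second probe sets of Cenpa and Kif23 were below 5 in all 6 arrays and gave no check. Mki67, the proliferation marker, read 10.03 and 11.94 in LT-HSC, against 8.77 and 9.91 and 11.89 and 10.57 in activated CD4 and CD8 arrays, so the groups overlapped and the difference of 0.70 ± 0.62 did not pass. Naive T cells read 11.20 to 12.67 for Mki67 and 7.46 to 8.15 for Cenpa, so these probe sets were not low in resting lymphocytes either.

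**Figure D4:**
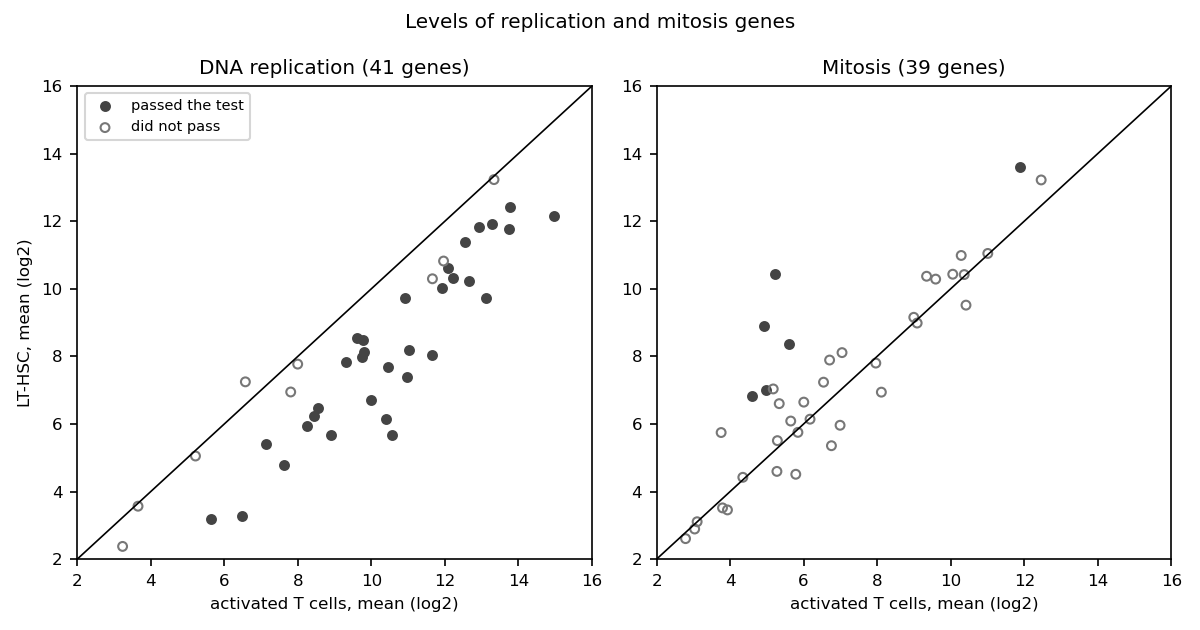
Mean log2 level in LT-HSC (y axis) against the mean of the activated CD4 and CD8 group means (x axis) for each tested gene of DNA replication (left panel, 41 genes) and of mitosis (right panel, 39 genes). Filled points passed the test, open points did not, and the diagonal marks equal levels. Replication genes lie mostly below the diagonal, mitosis genes lie around it and 6 of them pass the test above it.

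Replication genes share a known promoter feature, the E2F word. The same windows were searched on both strands for TTTCCCGC, TTTCGCGC, TTTGCCGC and TTTGGCGC, with overlapping matches counted once. One of the words stood in 10 of the 24 lower replication genes with a window (41.7%), in 4.9% of all tested genes with one and in 5.6% of the genes lower in LT-HSC. The matches shown lie before the gene start, with the word or its reverse complement in capitals, 5′ to 3′ on the gene's strand, for the helicase subunits Mcm5 (chr8:75109331-75109388, plus strand) and Mcm6 (chr1:128359783-128359840, minus strand), the loading factor Cdc6 (chr11:98907988-98908045, plus strand), the helicase partner Gins3 (chr8:95633493-95633550, plus strand) and the clamp loader subunit Rfc3 (chr5:151651209-151651243, minus strand).
Mcm5: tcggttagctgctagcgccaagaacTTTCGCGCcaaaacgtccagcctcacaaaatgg
Mcm6: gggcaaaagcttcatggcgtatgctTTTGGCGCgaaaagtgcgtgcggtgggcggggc
Cdc6: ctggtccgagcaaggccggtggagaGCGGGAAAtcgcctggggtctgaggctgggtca
Gins3: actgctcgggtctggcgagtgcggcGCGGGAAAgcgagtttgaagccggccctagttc
Rfc3: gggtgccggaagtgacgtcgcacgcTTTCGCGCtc
Mcm6, Cdc6, Gins3 and Rfc3, shown for their word and outside the rule that picked the other genes, were lower in LT-HSC (-1.33 ± 0.25, -3.23 ± 0.72, -1.73 ± 0.52 and -2.45 ± 0.48). The words were absent from the windows of the 5 mitosis genes that were higher in LT-HSC and had a window, which says nothing about the factors.

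Cyclins, kinases and their inhibitors gave calls on both sides. Of 20 cyclins, kinases and E2F factors tested, 6 were lower, 4 higher and 10 not called. Both shares of calls lay near the 27.5% lower and 22.7% higher of all genes. Cdk4, the kinase of early G1, read 9.22 and 8.19 in LT-HSC against 10.81 to 11.88, and its relative Cdk6 read 10.64 and 11.13 against 11.55 to 12.50, although a second Cdk6 probe set differed the other way (1.22). E2f1, an activator of the S phase genes, was lower (-2.04 ± 0.51), while E2f7, a repressor of the same family, read 7.87 and 7.79 in LT-HSC against 2.55 to 4.25. Among D cyclins, Ccnd1 read 6.10 and 5.79 in LT-HSC against 1.96 to 2.16 and was higher, whereas Ccnd2 (-0.11 ± 0.30) and Ccnd3 (-0.88 ± 0.34) did not pass. Other Ccnd2 probe sets were called lower, at -1.77 ± 0.25 and -2.20 ± 0.35, both above 5 in all 6 arrays. Of 7 CDK inhibitors and pocket proteins tested, 3 were higher and 1 was lower. Cdkn1b (p27) read 11.58 and 11.62 in LT-HSC, against 9.74 and 10.49 in activated CD4 and 9.28 and 8.47 in activated CD8 T cells, and naive T cells read 11.26 to 11.84. Cdkn1a (p21) read 8.95 and 9.28 in LT-HSC, against 8.51 and 7.78 and 6.71 and 8.26 in activated CD4 and CD8 cells, with naive T cells at 2.72 to 3.39; its adjusted p of 0.0487 was lost under 13 of the 24 alternatives run for single genes. The pocket proteins were opposed: Rbl2 (p130), known from resting cells, was higher in LT-HSC by 2.16 ± 0.46, and Rbl1 (p107), known from cycling cells, was lower (-1.63 ± 0.48), with a second Rbl1 probe set in the other direction (1.39).

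Chromatin genes included 1 large difference on the activated side. Ezh2, the methyltransferase of Polycomb complex PRC2, read 9.18 and 9.31 in LT-HSC, against 12.46 and 12.20 in activated CD4 and 12.39 and 12.15 in activated CD8 T cells, and its partner Eed was lower (-1.24 ± 0.26). Of 20 DNA methylation and Polycomb genes tested, 7 were higher in LT-HSC, 2 lower and 11 not called, beside 22.7% higher and 27.5% lower of all genes. The list median was 0.048. Among the higher genes were the PRC1 genes Phc1 (2.31 ± 0.38), Cbx6 (2.27 ± 0.46) and Rnf2 (2.21 ± 0.36) and the methylcytosine dioxygenase Tet1 (2.61 ± 0.37). A second Rnf2 probe set, above 5 in all 6 arrays, was not called (0.35 ± 0.46). Bmi1, the PRC1 subunit required for stem cell renewal, read 11.82 and 11.77 against 11.80 to 12.02 and did not pass.

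Immediate early genes, which respond to stimuli within minutes and are often taken as signs of activation, were mostly higher in the stem cells. Of 21 tested, 14 were higher in LT-HSC and 1 was lower, with a median of 2.91. Fos, a subunit of AP-1, read 13.53 and 14.00 in LT-HSC, against 7.08 and 6.62 in activated CD4 and 5.58 and 7.5 in activated CD8 T cells, and 10.70 to 12.52 in naive T cells. Fosb read 9.33 and 9.55 against 2.02 to 2.06, and the orphan nuclear receptor Nr4a2 read 14.30 and 14.55 in LT-HSC, against 6.03 and 7.67 and 7.40 and 8.26. Zfp36, which destabilises inflammatory mRNAs, was higher by 4.65 ± 0.54. Egr2, a target of T cell receptor signalling, was the single member lower in LT-HSC, at 8.66 and 8.96 against 11.20 to 12.24, and Nr4a3, the relative of Nr4a2, read 13.11 and 12.32 against 12.19 to 13.18 and did not pass.

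Kruppel-like factors were higher in LT-HSC for 8 of 13 tested and lower for 0. Klf9, which answers to steroid hormones, read 14.01 and 14.07 in LT-HSC, against 4.11 and 5.59 in activated CD4 and 7.21 and 6.89 in activated CD8 T cells. Klf4, a factor that restrains proliferation in several tissues, read 11.04 and 11.89 against 3.55 to 4.14, and Klf12 and Klf10 were higher by 6.12 ± 0.17 and 5.99 ± 0.40. Klf2, the quiescence factor of naive T cells, read 5.01 and 7.47 in LT-HSC against 5.05 to 6.79 in activated and 8.66 to 10.48 in naive T cells, and did not pass.

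Autophagy and lysosome genes leaned to the LT-HSC side. Of 26 autophagy and lysosome genes tested, 15 were higher and 2 lower. Map1lc3b, the LC3 protein of autophagosomes, read 15.63 and 15.70 in LT-HSC, against 13.30 and 13.71 in activated CD4 and 13.75 and 13.55 in activated CD8 T cells. Map1lc3a and Gabarapl1 of the same family were higher by 4.76 ± 0.54 and 4.62 ± 0.29, and the lysosomal protease Ctsl read 11.80 and 11.10 against 4.44 to 6.41. The conjugation enzymes went the other way, with Atg7 at 4.81 and 4.90 in LT-HSC against 6.61 to 7.68, and Atg3 lower (-1.48 ± 0.19). In the FoxO and oxidative defence list, 6 of 23 were higher and 4 lower, beside 22.7% and 27.5% of all genes. Txnip, an inhibitor of glucose uptake and of thioredoxin, read 13.33 and 12.32 in LT-HSC against 7.10 to 9.55 in activated and 13.20 to 13.64 in naive T cells. Hif1a was lower (-1.36 ± 0.29) and its relative Epas1 was higher by 4.22 ± 0.37. ABC transporters gave 7 higher and 4 lower of 20, beside the same 22.7% and 27.5%. Abcg2, the pump whose dye efflux defines the side population, read 11.37 and 10.12 in LT-HSC, against 6.02 and 4.09 in activated CD4 and 6.60 and 5.0 in activated CD8 T cells.

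Survival, NF-kB and interferon genes were called on both sides, beside 22.7% higher and 27.5% lower of all genes. Both shares of the interferon list lay near these. In the Bcl2 family, Bcl2l1 (Bcl-xL) read 6.48 and 6.71 in LT-HSC against 10.29 to 11.26 and was lower, while Mcl1 read 14.90 and 15.01 against 13.47 to 13.78 and Bcl2l2 (Bcl-w) read 7.30 and 5.68 against 3.78 to 3.89, and both were higher. Of 5 other Mcl1 probe sets, 4 were higher too and 1 was lower (-1.63). Bcl2 itself read 8.91 and 9.85 against 7.87 to 9.79 and did not pass, while other Bcl2 probe sets were called lower (-1.65 ± 0.54 and -2.28 ± 0.26). In the NF-kB list 5 of 15 were lower, among them Nfkb2 (-2.89 ± 0.30) and Rel (-2.24 ± 0.25), and Nfkbiz alone was higher, at 12.81 and 13.14 against 9.99 to 11.45. Without the first activated CD8 array 8 were lower. Of 26 interferon response genes, 8 were higher and 7 lower, and 11 were lower without the second activated CD8 array. The antiviral Rsad2 (viperin) read 9.93 and 9.17 in LT-HSC against 3.91 to 6.07 in activated and 9.14 to 9.49 in naive T cells, and the RNA sensor Ifih1 (MDA5) was higher by 3.44 ± 0.36. Usp18, which damps interferon signalling, read 3.42 and 2.75 against 6.21 to 8.56 and was lower. Class II presentation genes were higher for 5 of 10 and class I presentation genes lower for 5 of 14. H2-Ob, a modulator of peptide loading, read 12.23 and 11.82 in LT-HSC against 3.35 to 7.09 in activated and 12.49 to 12.72 in naive T cells, and the immunoproteasome subunit Psmb9 was lower (-2.43 ± 0.25).

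The genes of strongest signal on each side were described too, although signals of different probe sets are not on 1 scale. Ctla2a, a cysteine protease inhibitor and the strongest among genes higher in LT-HSC, read 15.74 and 15.80 in LT-HSC, against 7.37 and 7.57 in activated CD4 and 10.32 and 10.58 in activated CD8 T cells. The next were Map1lc3b, Serinc3, Zmynd11, Ctnnb1, Bex1, Mcl1 and Gas5, where Ctnnb1 (beta-catenin) differed by 1.82 ± 0.31. Of 3 other Gas5 probe sets, none was called (0.01, 0.82 and 0.69). Bex1, an adaptor best known from neurons, read 14.98 and 15.08 against 9.18 to 10.85, with naive T cells at 2.92 to 6.13. Among genes lower in LT-HSC, the strongest activated signals belonged to Psmc2, Uqcrc2, Hnrnpu, Eef1d, Mcm5, Psat1, Ube2d3 and Psma6, with differences between -2.81 and -1.27. For Ube2d3 and Psma6 the probe set of highest variance differed the other way, at 0.82 and 1.40, without a call. Of 4 other Hnrnpu probe sets, 1 was called lower too, and the rest (0.33, 0.41 and 0.11) were not called. Psmc2, an ATPase of the proteasome cap, read 14.10 and 14.05 against 15.55 to 15.62.

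Each activated population was also compared with LT-HSC on its own. Against activated CD4 T cells alone, 2227 genes were higher in LT-HSC (22.7%) and 2411 lower (24.6%), and against activated CD8 T cells alone 2042 were higher (20.8%) and 2831 lower (28.9%); both comparisons share the LT-HSC arrays. Activated CD4 and CD8 T cells differed from each other at 142 genes (1.45%), of which 28 were higher in CD4 (0.285%) and 114 lower (1.16%). With only the 6 compared arrays in the fit, 25 genes passed, and with array weights 258. The 5 largest of each direction that also differed from LT-HSC show where the mean of both hides a gap. Il21, the follicular helper cytokine, read 2.49 and 2.53 in LT-HSC, 9.01 and 10.01 in activated CD4 and 2.52 and 6.93 in activated CD8 T cells. Il4, the Th2 cytokine, read 2.14 and 2.16 in LT-HSC, 6.09 and 6.68 in activated CD4 and 2.15 and 2.15 in activated CD8 T cells. Both cytokines lay near background in LT-HSC, as did the death receptor Tnfrsf25 (DR3), at 2.70 and 2.34 in LT-HSC, 7.28 and 7.59 in activated CD4 and 3.8 and 2.84 in activated CD8 T cells. Runx1, which stem cells need and which represses Cd4, was higher in LT-HSC by 2.83 ± 0.39, at 9.55 and 9.0 in LT-HSC, 7.80 and 8.63 in activated CD4 and 4.28 and 5.06 in activated CD8 T cells. Against activated CD4 T cells alone that difference was 1.06 ± 0.45, and against activated CD8 T cells alone it was 4.61 ± 0.45. Il1r2, the IL-1 decoy receptor, likewise was 2.19 ± 0.79 from CD4 and 5.70 ± 0.79 from CD8 T cells.

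On the CD8 side, the co-receptor Cd8a read 3.77 and 4.50 in LT-HSC, 5.26 and 5.63 in activated CD4 and 12.91 and 12.42 in activated CD8 T cells. Nkg7 and Ctsw, genes of cytotoxic cells, lay near background in both LT-HSC and activated CD4 T cells. Nkg7 read 4.14 and 3.30 in LT-HSC, 3.10 and 4.87 in activated CD4 and 10.67 and 10.74 in activated CD8 T cells, and Ctsw read 2.52 and 2.52, 2.55 and 2.30 and 7.18 and 7.34 in the same order. Gzmb, granzyme B, read 3.12 and 3.64 in LT-HSC, 7.03 and 7.51 in activated CD4 and 13.01 and 13.99 in activated CD8 T cells. Nedd4, a ubiquitin ligase, was placed the other way round: it read 10.67 and 10.32 in LT-HSC, 3.38 and 3.84 in activated CD4 and 9.87 and 9.88 in activated CD8 T cells, so that LT-HSC and CD8 cells lay close. Its difference was 6.88 ± 0.54 from CD4 and 0.62 ± 0.54 from CD8 T cells, so the mean over both activated groups describes neither.

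**Figure D5:**
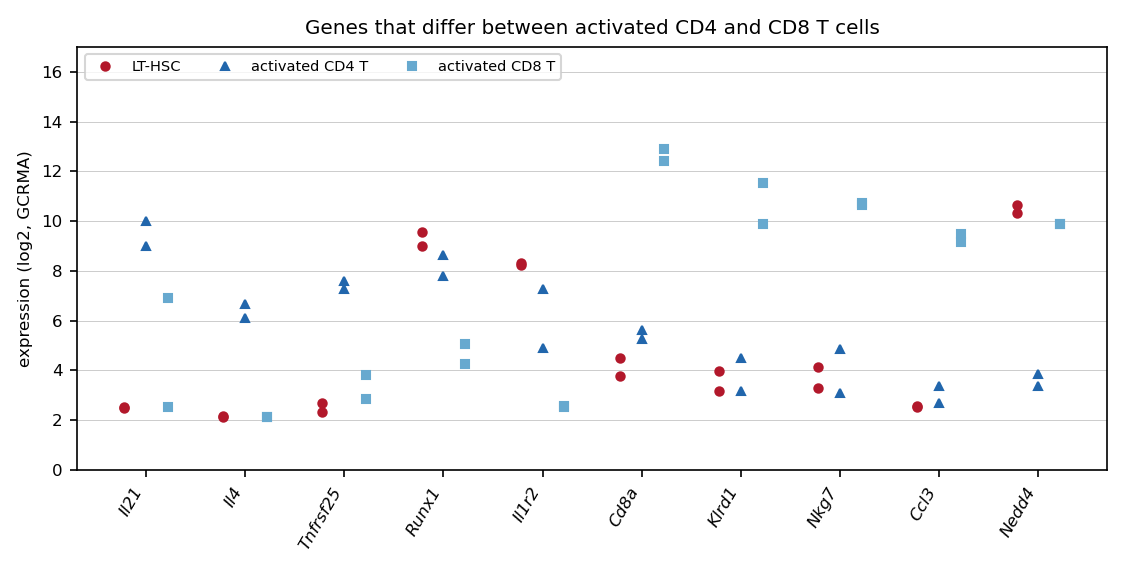
Log2 expression per array in LT-HSC (circles), activated CD4 (triangles) and activated CD8 T cells (squares), 2 arrays each, for the 10 genes with the largest differences between the 2 activated groups among those that also differ from LT-HSC. Il21, Il4, Tnfrsf25, Runx1 and Il1r2 are higher in activated CD4 than in activated CD8 T cells, and Cd8a, Klrd1, Nkg7, Ccl3 and Nedd4 are lower in activated CD4 than in activated CD8 T cells.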

How the data were processed

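Expression was measured on Affymetrix mouse expression arrays (Mouse430_2). The deposited log2 values come from GCRMA, as the submitters' processing notes name it, with no version and no statement on joint processing in the sources used here. Of 45101 probe sets, 34945 carry 1 gene symbol, 932 several and 9160 none, besides 64 controls. A gene was represented by the probe set of highest mean over the 20 arrays and tested where at least 2 of 20 arrays exceeded 5, which left 9810 of 18193 genes. The number of arrays limits the precision.

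A model with 10 group means was fitted in limma 3.58.1 (R 4.3.3) with 10 residual degrees of freedom, with p-values adjusted by Benjamini and Hochberg over all genes tested. A call needs an adjusted p under 0.05 and a difference of at least 1. The procedure was tested on simulated data. The members and lists were chosen with earlier results of these data known. Named genes are the 12 largest non-overlapping calls a side, the 8 of strongest signal a side, the 5 largest gaps between activated CD4 and CD8 T cells a side, up to 6, 3 and 3 majority, minority and uncalled members of each list, and all LT-HSC, T cell and sex-linked markers; Itgam, Camp, Ltf, Klf1 and Alas2, named as absent markers, and the genes printed for a motif were chosen after their values were seen. Deviations of same-numbered arrays correlated at -0.06 and 0.02 with LT-HSC and at 0.21 between activated CD4 and CD8, and the numbers were not taken as pairs in the main fit. Xist, Eif2s3y, Kdm5d and Tpi1 went with the array number in both activated groups. Whether same-numbered activated arrays are independent of each other was not tested. Alternatives covered the fit, filters, scaling, probe set choice, call rule, comparator and each array left out.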

Additional observations from a re-analysis of the deposited data

Results flagged for a closer look

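For the genes below, the distance to LT-HSC differed between activated CD4 and activated CD8 T cells, by the contrast of the 2 activated groups in limma with Benjamini-Hochberg adjustment and 2 arrays a group; values are activated CD4 minus activated CD8 on the log2 scale. Higher in activated CD4 T cells were Il21 (4.785, adjusted p = 0.044), Il4 (4.235, adjusted p = 0.000401), Tnfrsf25 (4.115, adjusted p = 2.59e-06), Runx1 (3.545, adjusted p = 0.000789), Il1r2 (3.515, adjusted p = 0.0446) and Bcl6 (1.58, adjusted p = 0.0358). Lower in activated CD4 than in activated CD8 T cells were Gabarapl1 (-1.615, adjusted p = 0.0291), Rfc3 (-2.57, adjusted p = 0.0356), Ctla2a (-2.98, adjusted p = 8.15e-05) and Ctla2b (-4.105, adjusted p = 0.000722). The same held for the cytotoxic genes Ctsw (-4.835), Gzmb (-6.23), Nkg7 (-6.72) and Klrd1 (-6.855), for the chemokine gene Ccl3 (-6.285), for Nedd4 (-6.265) and for Cd8a (-7.22), with adjusted p-values from 2.8e-08 to 0.0155. Ctla2a and Ctla2b, which are close relatives, were higher in LT-HSC than in either activated group. Ccl3 lost its call against LT-HSC without the first LT-HSC array (-3.60, adjusted p = 0.0512).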

How the results depend on the processing

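The counts of 2226 higher and 2699 lower genes stayed within 1.5 times in every alternative except a minimum difference of 2, which left 1347 and 1416. Leaving out 1 array at a time gave 1892 to 2228 higher and 2425 to 2698 lower genes. A replicate block, fitted although the array numbers were not taken as pairs (the deviations of same-numbered activated CD4 and CD8 arrays correlated at 0.213, and those with LT-HSC at -0.06 and 0.021), gave 2221 and 2704 and ended 1 named call, that of Cdkn1a. The 142 genes that differed between activated CD4 and CD8 T cells became 25 with only the 6 compared arrays in the fit, 93 with the filter at 7, 258 with array weights and 86 at a minimum difference of 2, and 101 to 171 without 1 array. Chosen after seeing the data, leaving out chromosomes X and Y gave 2116 higher and 2648 lower genes, and leaving out both activated arrays numbered 1 gave 2104 and 2550, with 90 between CD4 and CD8. Over the 24 alternatives run for single genes, 55 of 213 named calls were lost in at least 1. Other probe sets, 140 in all, were tested for 89 of the called named genes. Of these probe sets 103 gave the same call, 4 the opposite call and 33 no call. Of the 33, 16 were below 5 in all 6 compared arrays.
Signs turned for 15 named genes. Against activated CD4 T cells alone they were Ctsw 0.095, Hoxa5 -0.025, Mcm7 0.21 and Paics -0.14, and against activated CD8 T cells alone Bcl2 -0.14, Ccnd2 0.17 and Mki67 -0.245. Quantile normalization turned Klf2 (-0.031). The mean of all probe sets turned Bcl2 (-0.573), Bmi1 (0.204), Ccnd3 (0.238), Cdk6 (0.039), Eif2s3x (-0.751) and Paics (-0.177), and the probe set of highest variance Ccnd3 (1.493), Eif2s3x (-2.493), Mcl1 (-1.628), Paics (-0.417), Psma6 (1.403) and Ube2d3 (0.817). Without both activated arrays numbered 1, Bcl2 was -0.34 and Mcm7 0.08. Leaving out 1 array moved Bcl2 between -0.275 and 0.685, Ccnd2 between -0.285 and 0.065, Hoxa5 between -0.165 and 0.445, Klf2 between -0.982 and 1.478, Mcm7 between -0.235 and 0.025, Mki67 between -0.255 and 1.655, and Paics between -0.005 and 0.175. Without the first LT-HSC array, calls ended for Csf3r (1.14), Prc1 (2.58), Slc36a1 (1.06), Slc7a5 (-1.34), Gas5 (0.97) and Cdk6 (-0.825), and without the second for Eed (-0.82), Gadd45b (-2.95), Ppbp (1.08), Rbl1 (-1.38), Zfpm1 (-1.41) and Zmynd11 (0.97). The call of Gas5 also ended without the second activated CD4 array (0.91). Psat1, Gins3, Kdm5d (-5.81 and -5.85) and Cdkn1a lost theirs without either LT-HSC array, Igf2r (-0.88) without the first activated CD8 array, and without the second activated CD8 array so did Cdk6 (-0.96) and Mga (1.00). The causes were not tested.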

Other observations

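Genes that answer to p53 or to DNA damage divided by member. Of 22 tested, 5 were higher in LT-HSC and 6 lower, with a median of -0.54, beside 22.7% and 27.5% of all genes. The related growth arrest genes Gadd45a and Gadd45b were called in opposite directions, although Gadd45b lost its call without the second LT-HSC array (-2.95). Gadd45a read 7.5 and 7.68 in LT-HSC against 4.07 to 4.46 in activated T cells and 4.35 to 5.41 in naive T cells, and Gadd45b read 6.88 and 5.67 in LT-HSC against 8.58 to 10.85 in activated and 5.11 to 6.29 in naive T cells. Sesn1, a sestrin that restrains mTORC1, and the p53 target Trp53inp1 were higher in LT-HSC by 2.21 ± 0.36 and 2.42 ± 0.45. Xrcc5 (Ku80), which binds broken DNA ends, was lower (-3.42 ± 0.28), as was the p53 target Zmat3 (-3.06 ± 0.55).

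GIMAP genes, which encode GTPases of lymphocyte survival, were lower in LT-HSC for 4 of 8 and higher for 0. Of all genes, 27.5% were lower and 22.7% higher. Gimap4 read 5.55 and 7.05 in LT-HSC, against 12.14 and 12.63 in activated CD4 and 13.39 and 13.15 in activated CD8 T cells, and 14.33 to 14.58 in naive T cells. Gimap7 and Gimap3 were also lower (-5.73 ± 0.40 and -4.94 ± 0.28). Gimap6 read 9.58 and 9.22 in LT-HSC against 9.72 to 10.03 in activated T cells, and its difference of -0.46 ± 0.24 did not pass.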
